A study of Mus musculus with 36 samples.

Results

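Mitochondrial ribosomal proteins are encoded by nuclear genes whose symbols begin with Mrpl (large subunit) or Mrps (small subunit). Members were the genes whose probe name in the scanner files has either prefix followed by a digit, if the scanner marked that signal as well above background on 6 or more of 36 arrays. Of 119 probes with such names, 114 passed that filter, and they read 77 genes of the 23054 genes measured, 48 named for the large subunit and 29 for the small. No named gene was lost, and the brightest probe of each of the 77 was well above background on all 36 arrays. A probe's brightness also depends on its sequence, so levels are compared between groups within a gene and not between genes.

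The mitochondrial ribosome translates the few messages made from mitochondrial DNA, all of which code for subunits of the respiratory chain and ATP synthase. Its RNA is transcribed inside the organelle, whereas its proteins are made in the cytosol and imported, so the ribosome is put together from the products of both genomes. The large subunit holds the centre where peptide bonds form, and the small subunit binds the message and the decoding end of the tRNA. Liver is rich in mitochondria, and many nuclear genes for mitochondrial proteins respond to nuclear respiratory factors and to the coactivator encoded by Ppargc1a.

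RNA came from the livers of 36 male mice on a C57BL/6J background, 1 array per mouse and 6 mice in each of 6 groups. The knockout groups (IRLKO) carried an insulin receptor gene, Insr, that tamoxifen deletes in hepatocytes (IRhep-/-), with the fourth exon floxed and a tamoxifen-activated Cre driven by the transthyretin promoter, so other liver cells keep the gene. The control groups (IRLWT, IRhep+/+) had the intact receptor. The labels do not say when tamoxifen was given or whether control mice carried Cre. Mice of both genotypes were 11 weeks old, ate chow freely and were killed at Zeitgeber time (ZT) 8, 12 or 16, with lights off at ZT12. The labels call the 6 mice of a group replicates and name 3 wash batches (11, 12 and 13 arrays), and every batch holds mice of every group.

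A level is the log2 signal of a gene minus its array's 75th percentile, which puts that percentile at 0, and a log2 ratio is knockout minus control. A gene is called when its limma p, adjusted by Benjamini-Hochberg over all 23054 genes, is under 0.05. Insr signal in knockouts was 27.2% to 31.8% of that in controls, and no knockout overlapped a control at any time, though the files do not say whether its probe reads the deleted exon. Hepatocyte markers were present in every group, with 3 of 7 called lower at each time and 1, Tat, higher at ZT12, and the log2 of their summed level was 12.14 to 12.51 in control mice and 11.50 to 12.28 in knockouts. The lists for other cells also held called genes. Over all genes 18.7%, 22.6% and 20% were called lower at ZT8, ZT12 and ZT16, and 16.7%, 19.6% and 19.9% higher. A list of 5 to 7 genes with 1 call lies near those shares. Of 7 macrophage markers 1, 4 and 2 were called higher at ZT8, ZT12 and ZT16. Of 7 endothelial markers 6 and 5 were higher at ZT12 and ZT16, and of 6 red cell genes 5 and 3 at those times. All 3 exocrine pancreas genes tested were called lower at every time. Of 5 lymphocyte markers 3 were called higher at each time and 1, 2 and 1 lower, of 7 stellate cell markers 2 were higher at ZT12 and at ZT16, of 5 bile duct markers 1 was lower at ZT12 and 1 higher at ZT16, and the red cell gene Alas2 was lower at each time. Summed macrophage markers ran from 4.50 to 6.87 in controls and from 5.30 to 7.92 in knockouts, endothelial markers from 5.13 to 5.86 and from 5.21 to 5.92, red cell genes from 8.28 to 10.26 and from 8.52 to 10.43, and pancreas genes from 4.65 to 5.84 and from 3.30 to 3.97. Summed lymphocyte markers ran from 3.31 to 3.80 in controls and from 3.13 to 3.63 in knockouts, stellate markers from 5.28 to 6.47 and from 5.38 to 6.80, and bile duct markers from 2.06 to 3.72 and from 1.00 to 3.53. No defining marker tested lacked a signal well above background in a whole group. Their part in the results below was not tested, and in whole liver fewer cells of a type and less RNA per cell cannot be told apart.

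Some arrays stood apart. Knockout ZT8 replicate 3 had the lowest correlation with the rest of its group over all genes (0.9778, against 0.9877 to 0.9955 for the other 35 arrays). Control ZT16 replicate 6, the single ZT16 control of wash batch 1, had 68 of the 77 members below its group's median, by a median of 0.17, and knockout ZT12 replicate 6 had 66 below, by 0.12. Where leaving out 1 of these arrays ended the genotype call of a member named here, the value without it is given.

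The first question was whether the mitochondrial ribosomal proteins changed when hepatocytes lost the insulin receptor. At each time more of them fell than rose. At ZT8, 42 of the 77 members were called lower, among them Mrps17, Mrps7, Mrpl57 and Mrps34, and 1, Mrps6, was called higher. Over all genes 18.7% were called lower and 16.7% higher in that comparison. At ZT12, 49 members were called lower and 5 higher, where 22.6% and 19.6% of all genes were. At ZT16, 33 members were called lower and 7 higher, against a background of 20% and 19.9%, or 39.9% in either direction.

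The falls were small and shared by many members. The median member had a log2 ratio of -0.20 at ZT8, which is -12.8% in signal. It had -0.26 (-16.6%) at ZT12 and -0.14 (-9.01%) at ZT16, while the median of all genes was 0.01, -0.02 and 0.00. The ratio was below 0 for 63, 65 and 55 members. All 6 knockouts lay below all 6 controls for 26 members at ZT8, 40 at ZT12 and 17 at ZT16, where the same was true of 9.38%, 13% and 10% of all genes. All 6 knockouts lay above all 6 controls for 1, 2 and 2 members, against 6.13%, 8.38% and 9.22% of all genes. In the same 3 comparisons, 25 members were called lower at every time (10.6% of all genes), 55 were called lower at 1 time or more (31.3%) and 9 were called higher at 1 time or more (30.1%). No member was called higher at all 3 times (8.89% of all genes), and 14 members, such as Mrpl12, Mrpl19 and Mrpl52, were called at none.

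The genotypes can be set side by side in the mean over the 77 members. In controls at ZT8 this mean ran from 3.28 to 3.38 with a median of 3.33, and in knockouts from 3.06 to 3.28 with a median of 3.16. At ZT12 controls ran from 3.34 to 3.45 (median 3.40) and knockouts from 3.04 to 3.22 (median 3.18). At ZT16 controls ran from 3.15 to 3.41 (median 3.33) and knockouts from 3.16 to 3.23 (median 3.18). The genotypes were well apart at ZT12 and only just apart at ZT8, where the highest knockout lay under the lowest control by less than the second decimal shows. At ZT16 they overlapped through control replicate 6, which lay below every ZT16 knockout.

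**Figure D1:**
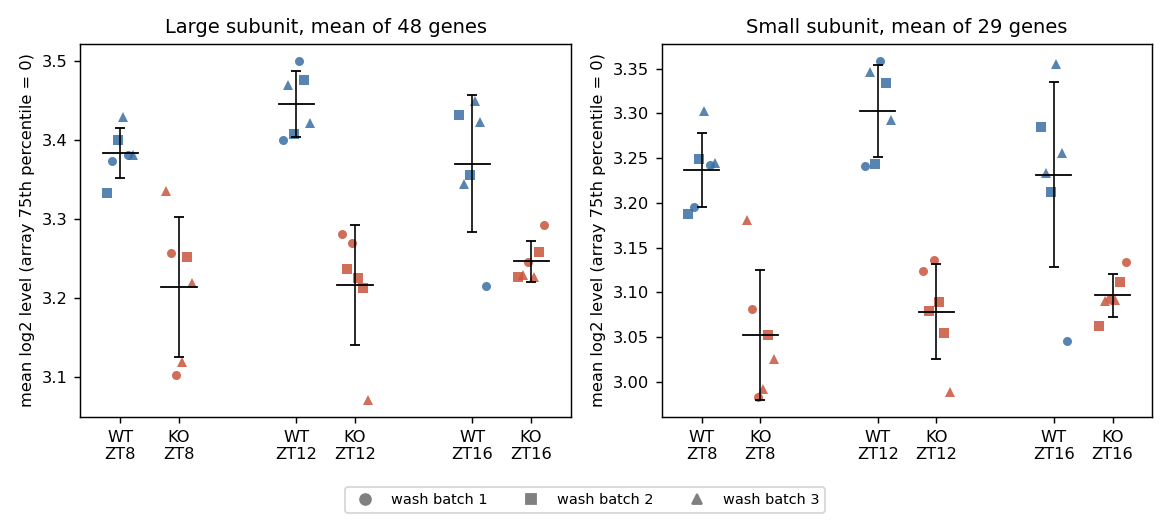
Mean log2 level of the large subunit members (left, 48 genes) and small subunit members (right, 29 genes) on each array, relative to the array's 75th percentile. Points are arrays in the 6 groups of genotype (WT, control; KO, knockout) and time, marker shapes are wash batches, and lines and bars are the mean and SD of 6 arrays. The knockout arrays lie below all controls at ZT12, while at ZT16 the lowest control, of wash batch 1, lies at 3.22 for the large subunit, below every knockout.

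The ZT16 result was the least steady. Without control ZT16 replicate 6, 35 members were called lower and 5 higher at ZT16, the median ratio was -0.16 and 25 members did not overlap on the lower side (12.4% of all genes). Within wash batches 2 and 3 the members' median at ZT16 was -0.15 and -0.16, but within wash batch 1, with 2 knockouts and that 1 control, it was 0.00. At ZT8 the medians within batches were -0.19, -0.13 and -0.21, and at ZT12 -0.19, -0.27 and -0.39. The share of called members that were lower at ZT16 also moved with the scaling, from 82.5% (33 lower, 7 higher) to 72.5% after quantile normalization and 54.5% in the authors' processed table (18 lower, 15 higher), while subtracting each array's median gave 42 lower and 0 higher by limma, with 5 higher at an unadjusted p under 0.05. At ZT8, 36 members were called lower without knockout replicate 3, and at ZT12 46 without knockout replicate 6.

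Brighter members had somewhat lower ratios. Among members the Spearman correlations of ratio with mean level were -0.13, -0.33 and -0.20 for the 3 times, and among all genes they were -0.13, -0.10 and -0.11. These are correlations across genes, which share the same arrays. Of the 3138 genes at least as bright as the median member, 28%, 37.7% and 35.4% were called lower, with median ratios of -0.03, -0.10 and -0.08. Of the 3 brightest members, Mrpl14, the counterpart of a bacterial protein at the subunit interface, had -0.23, -0.33 and -0.05 (the last not called, the first lost in 8 of 48 alternatives, among them without knockout replicate 3, at -0.14, limma adjusted p 0.158), Mrpl20 had -0.19, -0.42 and -0.35, and Mrpl52, without a bacterial counterpart, had 0.08, -0.09 and -0.03, none called. The 3 dimmest were Mrpl35, with -0.34 at ZT8 and uncalled values of -0.17 and 0.16 later, Mrpl19, with 0.00, 0.04 and 0.04, none called, and Mrps11, which fell at all 3 times.

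Members of both subunits fell. Of the 48 large subunit members, 26 were called lower at ZT8, 32 at ZT12 and 20 at ZT16, with median ratios of -0.18, -0.26 and -0.13. Of the 29 small subunit members, 16, 17 and 13 were called lower, with medians of -0.21, -0.29 and -0.14. Sorted by gene name, the calls on the higher side lay more on the small subunit, with 1, 3 and 5 members, than on the large, with 0, 2 and 2. The 0 at ZT8 stood beside 1 large member at an unadjusted limma p under 0.05. A difference between the subunits was not tested, since the members were chosen with results known. The large subunit mean minus the small subunit mean on an array had a median of 0.14 in ZT8 controls and 0.17 in ZT8 knockouts, 0.14 and 0.15 at ZT12, and 0.15 and 0.15 at ZT16. The ranges of the 2 genotypes overlapped at every time. At ZT8 the SD of this difference between arrays was 0.018 in controls and 0.034 in knockouts.

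**Figure D2:**
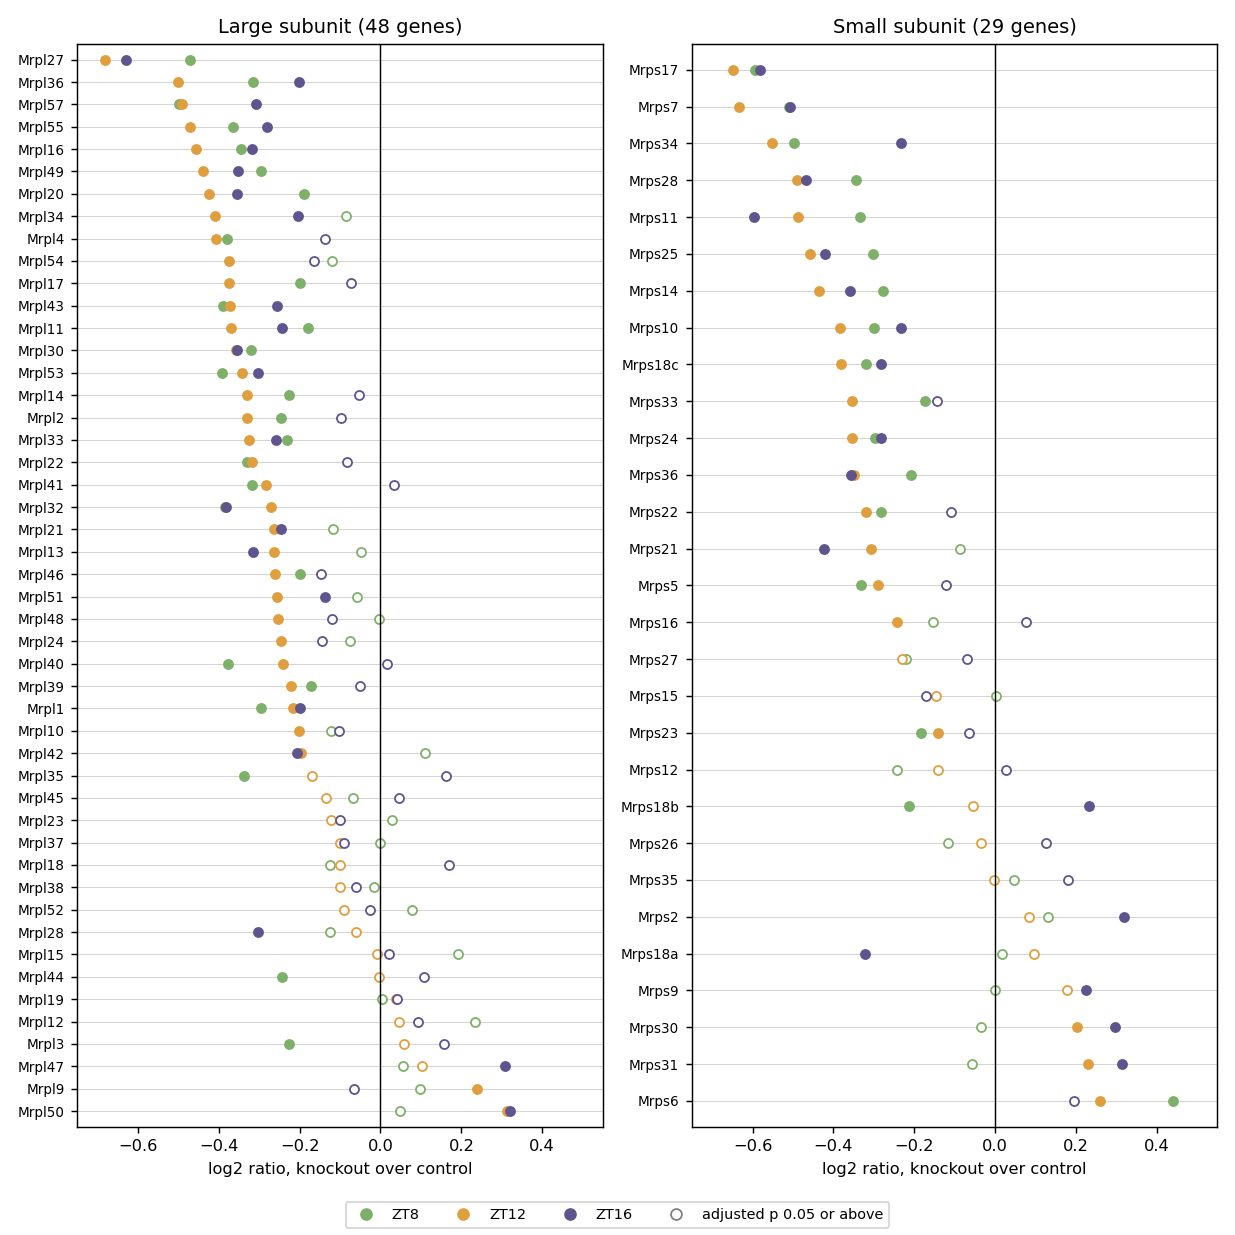
Log2 ratio of knockout over control for each of the 77 members at ZT8, ZT12 and ZT16, large subunit on the left and small subunit on the right, ordered by the ZT12 ratio. Filled points have a limma adjusted p under 0.05 and open points do not. Most points lie left of 0, from -0.68 for Mrpl27 at ZT12, while Mrps6 reaches 0.44 at ZT8.

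Gene names do not follow the structure everywhere. The proteins of Mrps30 and Mrps18a sit in the large subunit of the mammalian ribosome, and that of Mrps36 is a subunit of the oxoglutarate dehydrogenase complex. Sorted this way, the 50 large subunit members had 26, 32 and 21 calls on the lower side and the 26 small subunit members 15, 16 and 11. On the higher side the large subunit then had 0, 3 and 3 calls and the small 1, 2 and 4. At ZT12 these were 6% of the large and 7.69% of the small, against 4.17% and 10.3% by name, so that contrast depends on the sorting. Mrps36 itself was called lower at all 3 times, with ratios of -0.21, -0.35 and -0.36 (SE 0.08). Its ZT8 call was lost in 8 of 48 alternatives (highest limma adjusted p 0.0869), 6 of which left out 1 array, namely knockout replicates 3 (-0.20, adjusted p 0.053), 5 or 6 or control replicates 3, 4 or 6 of ZT8. Of the 46 members with a bacterial counterpart 26, 31 and 23 were called lower, and of the 30 without one 15, 17 and 9. The median ratios were -0.23, -0.30 and -0.19 with a counterpart and -0.17, -0.23 and -0.08 without.

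Promoter windows were read from RefSeq (GRCm38.p6) to show what stretches lie before members that moved together. A window spans 250 bases before the start of the transcript and 50 after, and 68 of the 77 members had one, among 27025 genes. Mrpl13, Mrpl15, Mrpl19, Mrpl38, Mrpl4, Mrpl54, Mrps28, Mrps34 and Mrps35 were not matched. The windows of 4 members are shown, Mrpl27, Mrpl57 and Mrps11 as members called lower at all 3 times and Mrps30 as one called higher. They lie at chr11:94653541-94653840, plus strand, chr14:57825989-57826288, plus strand, chr7:78782881-78783180, plus strand, and chr13:118387203-118387502, minus strand. Sequences are given 5′ to 3′ on the strand of the gene, and capitals mark a match, on either strand, to a motif of the nuclear respiratory factor NRF1, of ETS factors such as GABPA (CCGGAAG) or of YY1 (AANATGGCG), or to the SP, E-box, FOXO, CREB or ERR motifs given below. Both strands were searched and no motif contains another.
Mrpl27: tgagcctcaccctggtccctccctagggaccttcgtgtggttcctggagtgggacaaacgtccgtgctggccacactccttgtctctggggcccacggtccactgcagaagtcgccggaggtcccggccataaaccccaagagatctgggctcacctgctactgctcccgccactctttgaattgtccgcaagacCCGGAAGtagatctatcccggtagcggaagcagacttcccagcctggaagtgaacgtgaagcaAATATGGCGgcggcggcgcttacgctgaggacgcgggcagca
Mrpl57: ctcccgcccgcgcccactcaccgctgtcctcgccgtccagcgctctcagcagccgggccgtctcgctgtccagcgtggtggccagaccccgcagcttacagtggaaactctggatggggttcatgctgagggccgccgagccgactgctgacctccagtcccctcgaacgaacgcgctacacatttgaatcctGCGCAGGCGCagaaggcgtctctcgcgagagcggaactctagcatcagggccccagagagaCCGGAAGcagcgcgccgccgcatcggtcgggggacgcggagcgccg
Mrps11: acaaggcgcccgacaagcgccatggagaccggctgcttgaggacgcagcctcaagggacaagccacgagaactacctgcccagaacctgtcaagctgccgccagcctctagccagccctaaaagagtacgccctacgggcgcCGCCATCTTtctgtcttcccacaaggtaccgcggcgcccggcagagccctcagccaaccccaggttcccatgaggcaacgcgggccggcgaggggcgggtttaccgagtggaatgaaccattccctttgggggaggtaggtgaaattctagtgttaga
Mrps30: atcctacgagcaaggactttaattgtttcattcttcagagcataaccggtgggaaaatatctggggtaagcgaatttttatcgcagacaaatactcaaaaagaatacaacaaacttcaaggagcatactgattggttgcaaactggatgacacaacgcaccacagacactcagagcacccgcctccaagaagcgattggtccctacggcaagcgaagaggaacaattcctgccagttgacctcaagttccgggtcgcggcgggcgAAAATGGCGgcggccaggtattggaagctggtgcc

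The ETS motif was present in 24 of 68 windows (35.3%) against 9.12% of all, the NRF1 motif in 13 (19.1% against 4.78%) and the YY1 motif in 10 (14.7% against 2.51%). Mrpl27 holds an ETS match 55 bases before its start and a YY1 match from base 9, and Mrpl57 an NRF1 match 57 bases before and an ETS match from base 5. Called lower at all times were 23 members with a window. Of these, 6 held the ETS motif (26.1%), 3 the NRF1 motif (13%) and 4 the YY1 motif (17.4%). Of the 9 called higher at 1 time or more, 1, 2 and 1 held them. Each of the 4 windows shown holds at least 1 of these 3 motifs, but they are examples and do not stand for the 68. In contrast, the window of Mrps17 held no motif searched, and that of Mrps7 only the SP and KLF motif. The GC-rich SP and KLF motif GGGGCGGGG was in 13 windows (19.1% against 11.6%), the E-box CACGTG in 5 (7.35% against 7.24%), the FOXO motif GTAAACA in 2 (2.94% against 3.55%), the CREB motif TGACGTCA in 2 (2.94% against 1.88%), and the ERR motif TCAAGGTCA in 0 (0.407% of all). Members' windows had a median GC content of 58.2%, against 52.7% over all genes, and the part of base composition in these shares was not tested. A match is a run of letters and does not show that a factor binds.

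Mrpl27, the counterpart of a bacterial protein that lies close to the peptidyl transferase centre, had the lowest ratio of any member at ZT12 and ZT16. Its probe lies on chromosome 11 (mm9), 94521320 to 94521379. At ZT8 control levels were 4.24 to 4.47 (median 4.35) and knockout levels 3.70 to 4.11 (median 3.90). At ZT12 controls had 4.27 to 4.59 (median 4.43) and knockouts 3.50 to 3.88 (median 3.77), and at ZT16 controls had 4.28 to 4.48 (median 4.37) and knockouts 3.66 to 3.87 (median 3.74). Every knockout was below every control at each time. Its log2 ratios of -0.47, -0.68 and -0.63 over the 3 times (SE 0.07, limma adjusted p 1.67e-06, 1.95e-09 and 8.19e-09) are changes of -27.9%, -37.7% and -35.4% in signal. A second bright probe of Mrpl27 gave -0.59 and -0.75 at ZT8 and ZT12. A dimmer probe gave -0.25, not called, and -0.54 at those times. The dimmest, well above background on 29 arrays, gave -0.12 and -0.10, neither called.

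Mrps17 is the counterpart of a bacterial protein that binds ribosomal RNA, and its probe lies on chromosome 5, 130224074 to 130224133. It ran from 3.99 to 4.14 (median 4.02) in ZT8 controls and from 3.35 to 3.58 (median 3.42) in ZT8 knockouts. At ZT12 the ranges were 4.11 to 4.20 (median 4.15) and 3.36 to 3.63 (median 3.51), and at ZT16 3.79 to 4.13 (median 4.03) and 3.39 to 3.46 (median 3.42). The genotypes did not overlap at any time. Its ratio was nearly level over the day, at -0.59, -0.65 and -0.58 (SE 0.06, limma adjusted p 7.80e-10, 9.86e-11 and 7.64e-10), and its dimmer probe gave -0.57 and -0.61 at ZT8 and ZT12.

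Mrps7, whose bacterial counterpart organises the head of the small subunit, was read on chromosome 11, 115468609 to 115468668. Controls had 4.90 to 5.09 (median 5.01) at ZT8, 5.12 to 5.22 (median 5.17) at ZT12 and 4.92 to 5.11 (median 5.04) at ZT16. Knockouts had 4.36 to 4.65 (median 4.44), 4.45 to 4.65 (median 4.53) and 4.41 to 4.64 (median 4.51). No knockout reached the lowest control at its time. The fitted ratios were -0.51, -0.63 and -0.51 (SE 0.06), and another probe gave -0.63 and -0.64 at ZT8 and ZT12. Mrpl27, Mrps17 and Mrps7 kept their direction and their call at each time in all 48 alternatives, with single arrays left out among them.

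Members without a bacterial counterpart were also among the lowest. Mrpl57, a large subunit protein found only in mitochondria, had 5.11 to 5.29 (median 5.22) in ZT8 controls and 4.59 to 4.85 (median 4.75) in ZT8 knockouts. Its ratios were -0.50, -0.49 and -0.31 (SE 0.06), and the genotypes did not overlap at any time. Mrps34, a small subunit protein needed for a stable small subunit, ran from 4.75 to 4.94 (median 4.87) in ZT8 controls and from 4.23 to 4.51 (median 4.35) in ZT8 knockouts. At ZT16 its controls had 4.61 to 5.06 (median 4.95) and its knockouts 4.60 to 4.73 (median 4.69). The ZT8 groups were apart and the ZT16 groups overlapped at control replicate 3, and the 3 ratios in order of time were -0.50, -0.55 and -0.23.

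Other low members included Mrpl36, with ratios of -0.32, -0.50 and -0.20, Mrps28, with -0.34, -0.49 and -0.47, and Mrps11, with -0.33, -0.49 and -0.60, each called at all 3 times. Mrps11 is the counterpart of a protein of the small subunit platform. Its levels at ZT12 were -0.20 to 0.15 (median 0.08) in controls and -0.55 to -0.26 (median -0.43) in knockouts, with no overlap, whereas the groups overlapped at ZT8 and ZT16.

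The members called higher were few. Mrps6, the counterpart of a bacterial protein of the small subunit platform, had 1.75 to 2.02 (median 1.85) in ZT8 controls and 2.14 to 2.59 (median 2.25) in ZT8 knockouts. At ZT12 it had 1.95 to 2.27 (median 2.21) and 2.33 to 2.48 (median 2.41), and at ZT16 2.06 to 2.47 (median 2.33) and 2.34 to 2.70 (median 2.46). Knockouts were above every control at ZT8 and ZT12, and the groups overlapped at ZT16. Ratios of 0.44 and 0.26 were called at the first 2 times (SE 0.08, limma adjusted p 0.000111 and 0.0125), and that of 0.20 at ZT16 was not (0.0603).

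The other higher members were called at ZT12, ZT16 or both. Mrpl50, a large subunit protein without a bacterial counterpart, had 0.35 to 0.68 (median 0.62) in ZT12 controls and 0.73 to 1.01 (median 0.90) in ZT12 knockouts, and its ratios were 0.05, 0.31 and 0.32 (SE 0.08). Its ZT12 groups did not overlap. Mrps30 had 2.18 to 2.53 (median 2.35) in ZT16 controls and 2.54 to 2.71 (median 2.64) in ZT16 knockouts, also without overlap, with ratios of -0.03, 0.20 and 0.30. Mrps31 had -0.06, 0.23 and 0.31, and Mrps2 0.13, 0.08 and 0.32. A dimmer probe of Mrps31 gave -0.32 at ZT8, called lower, and uncalled values of -0.19 and 0.13 later. A dimmer probe of Mrps2 gave -0.04, -0.09 and -0.02, none called. Mrpl47 had 0.06, 0.10 and 0.31, with no overlap at ZT16, and Mrps9 0.00, 0.18 and 0.22. The ZT16 call of Mrps9 was lost without control ZT16 replicate 6 (0.18, limma adjusted p 0.0677) and in 4 of 48 alternatives in all. Mrpl9 was called higher at ZT12 alone (0.24), against 0.10 at ZT8 and -0.07 at ZT16, and that call was lost in 7 of 48 alternatives, among them without knockout replicates 2 or 4 or control replicates 3 or 5 of ZT12. The ZT12 call of Mrps31 was lost in 6 of 48, among them without knockout replicate 1 or control replicates 1 or 3. Within wash batch 3, which holds 1 ZT12 knockout, the ZT12 ratios of Mrpl9 and Mrps30 were -0.07 and -0.01.

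**Figure D3:**
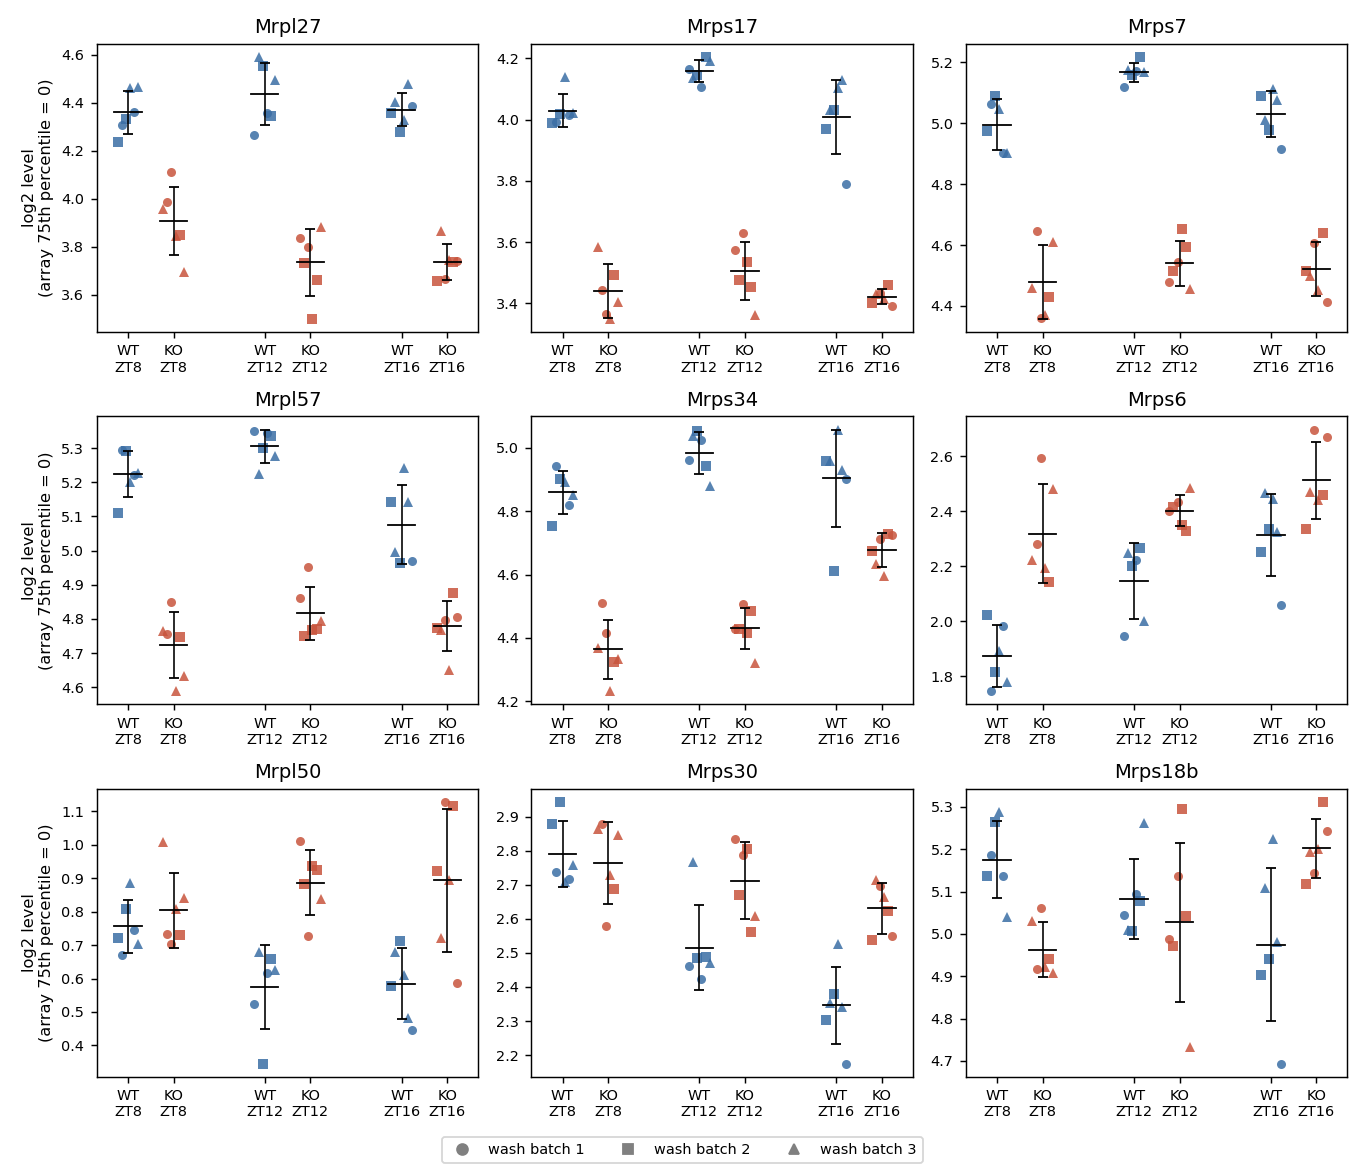
Log2 level of 9 members on each array, relative to the array's 75th percentile. Groups are control (WT) and knockout (KO) at ZT8, ZT12 and ZT16, marker shapes are wash batches, and lines and bars are the mean and SD of 6 arrays. Mrpl27, Mrps17, Mrps7 and Mrpl57 have no overlap between genotypes at any time, Mrps6 lies higher in knockouts at ZT8 and ZT12, and Mrps18b changes side from ZT8 to ZT16.

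The Mrps18 genes are 3 paralogs whose proteins occupy different sites, that of Mrps18c the site of the bacterial protein. Differences between the 3 were not tested. Mrps18c was called lower at all 3 times, with ratios of -0.32, -0.38 and -0.28 (SE 0.06). Mrps18a was called only at ZT16 (-0.32, limma adjusted p 0.0165), with 0.02 and 0.10 before. The ZT16 levels of Mrps18a were 2.72 to 3.34 (median 3.22) in controls and 2.59 to 3.03 (median 2.83) in knockouts, which overlap, and with its dim second probe averaged in the ratio was 0.32. Mrps18b had 5.04 to 5.29 (median 5.16) in ZT8 controls and 4.91 to 5.06 (median 4.93) in ZT8 knockouts, and 4.69 to 5.22 (median 4.96) and 5.12 to 5.31 (median 5.20) at ZT16. Its groups overlapped at both times, and it was the single member called in both directions, with -0.21 at ZT8, -0.05 at ZT12 and 0.23 at ZT16 (limma adjusted p 0.0347, 0.613 and 0.0191). Without control ZT16 replicate 6 its ZT16 ratio was 0.17 and was not called (0.0903). Its ZT8 call was lost in 10 of 48 alternatives (highest limma adjusted p 0.137), 7 of which left out 1 array, namely knockout replicates 2, 4, 5 or 6 or control replicates 2, 3 or 4 of ZT8. Another bright probe of Mrps18b gave -0.27 at ZT8, called lower, and 0.21 at ZT16, not called (limma adjusted p 0.0506). A dimmer one gave -0.40 at ZT8, called lower, and 0.05 at ZT16, not called, so the ZT16 call rests on the brightest probe.

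Other probes offer a check on these readings. Besides the brightest, 37 other probes of 28 members were kept, and 12, 13 and 14 of them were called lower at ZT8, ZT12 and ZT16 and 3, 2 and 2 higher. Where the brightest probe and another were both called, the sign was the same for 10 of 10, 13 of 15 and 10 of 10 pairs. The dim second probe of Mrpl24 (mean level -3.71) rose by 0.60 at ZT12 and 0.98 at ZT16, where the brightest had -0.25 and -0.14. A dim probe of Mrpl48, well above background on 11 arrays, rose by 1.22 and 0.97 at ZT8 and ZT12, where the brightest had 0.00 and -0.25. Ratios of Mrpl24 and Mrpl48 therefore depend on the probe, as do those of Mrps31 and Mrps2 given above.

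Fewer members were called between times of day than between genotypes, and so were fewer of all genes (3.62% to 28.9% against 35.4% to 42.2%). In controls 12 members (15.6%) were called higher and 11 (14.3%) lower at ZT16 than at ZT8. These shares lay near the 13.4% and 13.2% of all genes (26.6% together). In knockouts 16 were higher (20.8%) and 9 lower (11.7%), against 15.5% and 13.4% of all genes. The largest rise in controls was that of Mrpl34 (0.62), with levels of 3.24 to 3.45 (median 3.38) at ZT8 and 3.82 to 4.06 (median 4.00) at ZT16, which do not overlap. Mrpl36 (0.46 in controls, 0.57 in knockouts) also rose in both genotypes. Mrps9, with a bacterial counterpart in the small subunit head, had the largest fall in each, from 0.96 to 1.20 (median 1.08) at ZT8 to 0.04 to 0.55 (median 0.39) at ZT16 in controls, again with no overlap. Its ratio of ZT16 to ZT8 was -0.75 in controls and -0.52 in knockouts. Mrps30 fell by 0.46 in controls. Mrps27, an RNA-binding protein of the small subunit, rose by 0.36 in controls and 0.51 in knockouts, and Mrpl12, a protein of the ribosomal stalk, fell by 0.29 and 0.43.

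The shorter intervals gave smaller counts. From ZT8 to ZT12, 12 members rose and 3 fell in controls (7.7% and 7.14% of all genes) and 3 rose in knockouts, where 6.72% of all genes rose and 6.5% fell, and 10 were called in knockouts without knockout ZT8 replicate 3. From ZT12 to ZT16, 5 fell in controls (1.95% of all genes fell and 1.67% rose, 3.62% together), and 9 rose and 2 fell in knockouts (7.05% and 5.53%). The controls' count of 5 was 2 without control ZT16 replicate 6. Fitting only the groups compared left 0 members by limma for ZT12 to ZT16 in controls and 0 for ZT8 to ZT12 in knockouts, with 18 and 3 at an unadjusted p under 0.05.

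Whether the genotype effect differed between times was tested directly. The F test over the 3 times called 7 members (8.46% of all genes), namely Mrps18b, Mrps21, Mrps34, Mrpl22, Mrpl41, Mrpl40 and Mrpl3. Between ZT8 and ZT16 the effect was called different for 11 members (9.75% of all genes), 10 of them with a higher ratio at ZT16 (5.44% of all genes) and 1, Mrps21, with a lower one (4.32%). For ZT12 against ZT8 the limma count was 0, with 16 members at an unadjusted p under 0.05 (1.25% of all genes called, 0.564% on the higher side). For ZT16 against ZT12 it was 2, on the higher side (1.09% of all genes, with 0.855% on the lower).

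The F test count lay near the background, while 13% of members against 5.44% of all genes were called with a higher ratio at ZT16 than at ZT8. Both counts were unsteady. Without control ZT16 replicate 6, 4 of the 11 were still called, Mrpl22, Mrpl40, Mrps18b and Mrps21, and the F test called 4. Of all 23054 genes, 2077 were then called for ZT16 against ZT8, against 2248 with that array. Without control ZT8 replicate 3 or replicate 4 the ZT16 against ZT8 count was 7. The F test count ranged from 0 with the array median subtracted, where 11 had an unadjusted limma p under 0.05, to 14 with array weights. Mrpl40, a large subunit protein without a bacterial counterpart, had 2.60 to 2.89 (median 2.79) in ZT8 controls and 2.24 to 2.65 (median 2.36) in ZT8 knockouts. At ZT16 it had 2.67 to 2.91 (median 2.80) and 2.78 to 2.85 (median 2.82), so the knockout levels lay within the range of controls. The ratio went from -0.38 to 0.02, a difference of 0.39 (limma adjusted p 0.00478). Mrps21 moved the other way, with 4.61 to 4.78 (median 4.66) and 4.35 to 4.71 (median 4.64) at ZT8, which overlap, and 4.99 to 5.19 (median 5.07) and 4.58 to 4.71 (median 4.66) at ZT16, which do not. Its difference of ratios was -0.34 (0.00593).

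Many members share their promoter region with a neighbour. In 26 of 68 members (38.2%) another gene starts on the opposite strand, head to head and within 1000 bases, against 11.4% of all genes. Mrps11 and Mrpl46 form such a pair, with 42 bases between their starts, and Mrpl46 had ratios of -0.20, -0.26 and -0.15, the last not called, against -0.33, -0.49 and -0.60 for Mrps11. Other pairs went opposite ways. Mrps7 and Gga3, a coat adaptor gene 224 bases away, had -0.51 and 0.52 at ZT8, -0.63 and 0.63 at ZT12, and -0.51 and 0.65 at ZT16, all called. Mrps18c and Helq, a helicase gene 159 bases away, had -0.32 and 0.62 at ZT8, and Mrpl43 and Twnk, the mitochondrial DNA helicase 116 bases away, -0.39 and 0.58. Mrpl30 and Mitd1, 66 bases apart, both fell at all 3 times (-0.32 and -0.27 at ZT8). Of the 22 partners that were tested and are not members, 7, 7 and 6 were called lower and 3, 4 and 5 higher. Over all genes 18.7%, 22.6% and 20% were called lower and 16.7%, 19.6% and 19.9% higher. Where member and partner were both called, the sign was the same in 5 of 8, 6 of 10 and 1 of 6 pairs.

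Other genes of mitochondrial translation gave mixed counts. Beside these lists and those below, 18.7%, 22.6% and 20% of all genes were called lower at the 3 times. On the higher side the shares of all genes were 16.7%, 19.6% and 19.9%. Of the 6 tested mitochondrial ribosomal proteins that carry other names in the scanner files, 3, 5 and 4 were called lower at ZT8, ZT12 and ZT16. Among them were Dap3, a GTP-binding protein of the small subunit (-0.12, -0.26 and -0.33, the first not called), Aurkaip1 (-0.21, -0.40 and -0.30) and Mrpl58, named Ict1 in those files, a peptidyl-tRNA hydrolase built into the large subunit (-0.11, -0.32 and -0.21, the first not called). Of 23 assembly and RNA-modifying factors, 4, 3 and 4 were called lower and 3, 3 and 4 higher, each below the share of all genes. Mtg2, an assembly GTPase, changed by -0.37 at ZT8 and had 0.13 at ZT16, not called. Tfb1m, an rRNA methyltransferase, had -0.55 at ZT8 and uncalled values of -0.25 and 0.09 later, and the pseudouridine synthase gene Rpusd4 rose by 0.34, 0.24 and 0.40.

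Of 16 translation factors and message-stabilising proteins, 6, 6 and 3 were called lower and 1 higher, at ZT8. Slirp, which with its partner stabilises mitochondrial messages, changed by -0.27, -0.52 and -0.39, the deformylase gene Pdf by -0.27, -0.39 and -0.21, and the ribosome recycling factor gene Mrrf by -0.24, -0.30 and -0.22. Of 17 aminoacyl-tRNA synthetases of mitochondria, 8, 7 and 3 were called lower and, at ZT12 and ZT16, 3 and 5 higher, from -0.89 for Nars2 at ZT8 to 1.03 for Pars2 at ZT16, and Aars2 was called lower at each time (-0.40, -0.55 and -0.34). The same list held 3 subunits of the amidotransferase that completes glutaminyl-tRNA, of which Gatb and Gatc were called lower at each time and Qrsl1 at none. Of 11 genes of mitochondrial DNA replication and transcription, 4, 3 and 1 were called lower and 3, 2 and 2 higher. Twnk rose by 0.58 and 0.49 at ZT8 and ZT12, and Polg2, the accessory subunit of the mitochondrial DNA polymerase, fell by 0.38, 0.57 and 0.39. Ssbp1, the mitochondrial single-strand binding protein, fell by 0.33 and 0.23 at ZT8 and ZT12 and had 0.01 at ZT16.

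Of 9 regulators of nuclear genes for mitochondria, 4 were called higher at each time and 1 lower at ZT8 and at ZT16. Ppargc1a rose by 2.19, 2.20 and 1.89 (SE 0.19), and Nrf1 by 0.27, 0.60 and 0.49. Yy1 fell by 0.46 at ZT8 and by 0.33 at ZT16. Gabpa, which encodes the DNA-binding subunit of an ETS factor, was not called at any time (-0.20, -0.03 and -0.02). The median ratio of this list was 0.27, 0.27 and 0.26, above 0 where the members' medians were below it.

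Set beside other ribosome and respiratory genes, the members had the lowest median at ZT8 and ZT12. Of 79 cytosolic ribosomal protein genes, 33, 29 and 38 were called higher and 1 lower at each time, with medians of 0.21, 0.19 and 0.25. Not every knockout had this rise. The mean of these genes in knockout ZT8 replicate 3 (6.415) and knockout ZT12 replicate 6 (6.51) lay below the lowest control of its time (6.64 and 6.70). At ZT16 knockouts (6.81 to 7.07) lay above controls (6.59 to 6.80). Of 82 subunits of oxidative phosphorylation, 20, 32 and 42 were called lower and 6, 4 and 3 higher, with medians of -0.07, -0.14 and -0.18. The respiratory chain median thus went down over the 3 times, whereas that of the members was lowest at ZT12. These differences between lists were not tested. In a principal component analysis of the 77 members alone, component 1 carried 48.02% of their variance and was split mainly by genotype (85.9% of its spread), and component 2 carried 17.1% and was split mainly by time (86.3%).

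**Figure D4:**
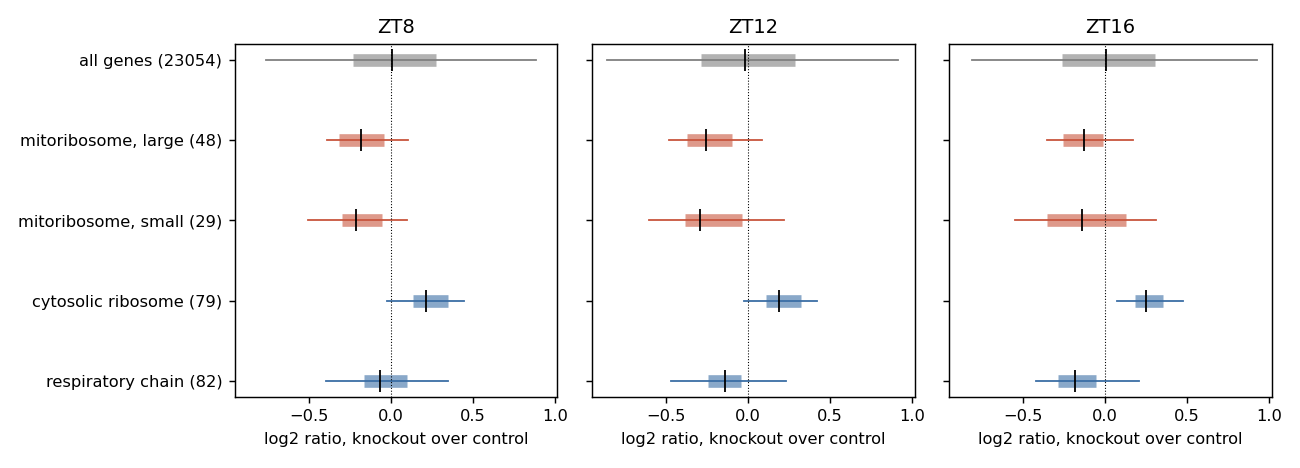
Spread of the log2 ratio of knockout over control at ZT8, ZT12 and ZT16 over all 23054 genes, the large and small subunit members, 79 cytosolic ribosomal protein genes and 82 respiratory chain and ATP synthase genes. The tick is the median, the thick bar spans the 25th to the 75th percentile and the thin line the 5th to the 95th. The medians of both mitochondrial subunits lie left of 0 at each time (-0.26 and -0.29 at ZT12) while part of each spread lies right of it, and the median of the cytosolic ribosome lies right of 0 (0.19 at ZT12).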

How the data were processed

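Total RNA (200 ng per sample) was labelled with Cy3 and hybridised to Agilent mouse arrays, 1 per mouse, per the labels' protocols. Deposited spot values are fluorescence intensity from Agilent Feature Extraction 10.10.1.1, per the file headers and the submitters' processing notes, with background subtracted and no scaling between arrays. Flags of each deposited spot are 0 or 1 (other). For 32801 probes the authors' processed table gives log2 values, with identical sorted columns. How it was made is not given in the sources used here, and it served as an alternative.

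Here levels are log2 processed signal less the array's own 75th percentile. Outlier spots were left out, spots of a probe were averaged, and the brightest kept probe stood for a gene. Probe positions are those in the files (mm9), and the exon read is not given. The fit was limma 3.58.1 in R 4.3.3 with a mean per group and wash batch as a term (28 residual degrees of freedom). SEs and p-values come from it, and it was tested on simulated data. Each array had 53.7% to 63.1% of spots well above background and a 75th percentile of 311 to 525 intensity units. Arrays give no counts, so their number limits the precision, and p-values measure the spread between these mice. Members, gene lists, motifs and tests were chosen with earlier results of these data known. Named members are the 5 highest and 5 lowest called ratios at each time, the 5 largest ZT16 minus ZT8 differences past the F test, the 3 highest and 3 lowest time changes, the 3 brightest and 3 dimmest, the Mrps18 paralogs, Mrps30, Mrps36, and members whose second probe went the other way. Up to 3 genes of each pathway list were named by smallest p. Mrpl22, Mrpl30, Mrpl43, Mrpl46, the neighbouring genes and Gabpa were named after their values were seen. Of 36 arrays none was dropped. Alternatives covered normalization, background correction, filter, probe choice, wash batch, slide, array weights, replicate block, groups fitted, and each array left out.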

Additional observations from a re-analysis of the deposited data

Results flagged for a closer look

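In several groups of 6 arrays 1 array stood far from the other 5 by Dixon's test at its 95% critical value for 6 values, in which the gap is divided by the group's range. This was so in 17 of 228 group tests over 38 items, and chance alone flags about 1 in 20 groups.

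Among controls at ZT8, Mrps17 had 4.14 in replicate 4 against 3.99 to 4.02 in the others (gap over range 0.777). Mrps27 had 0.72 in replicate 1 against 0.93 to 1.01 (0.719), and Mrps36 2.46 in replicate 1 against 2.63 to 2.73 (0.641). Among controls at ZT12, Mrps30 had 2.77 in replicate 2 against 2.42 to 2.49 (0.814), Mrps18b 5.26 in replicate 6 against 5.01 to 5.09 (0.656), Mrpl12 5.28 in replicate 4 against 4.85 to 4.99 (0.674) and Mrpl20 5.94 in replicate 5 against 5.80 to 5.84 (0.713). Among controls at ZT16, Mrps34 had 4.61 in replicate 3 against 4.90 to 5.06 (0.654). Replicate 6 of that group was low for Mrpl47, with 1.96 against 2.30 to 2.43 (0.723), and for Mrpl34, with 3.82 against 3.99 to 4.06 (0.677).

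Among knockouts at ZT8, Mrpl36 had 3.25 in replicate 2 against 2.94 to 3.06 (0.632) and Mrps28 3.81 in replicate 4 against 4.02 to 4.11 (0.713). Replicate 3 was low for Mrps21, with 4.35 against 4.58 to 4.71 (0.628), and for Mrpl52, with 5.55 against 5.73 to 5.82 (0.691). At ZT12 the large subunit mean was 3.07 in knockout replicate 6 against 3.21 to 3.28 (0.671). At ZT16, Mrpl20 had 5.50 in knockout replicate 6 against 5.29 to 5.34 (0.797), and Insr had -3.75 in knockout replicate 5 against -3.24 to -3.08 (0.765).

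For 11 members the genotype effect differed between ZT16 and ZT8 in the test of that difference. The log2 ratio was higher at ZT16 for Mrpl35 by 0.498, Mrps18b by 0.446, Mrpl40 by 0.394, Mrpl3 by 0.385, Mrps31 by 0.371, Mrpl44 by 0.353, Mrpl41 by 0.351, Mrps30 by 0.33, Mrps34 by 0.263 and Mrpl22 by 0.248. Mrps21 had a difference of -0.335. Limma adjusted p-values ran from 0.00478 for Mrpl40 to 0.0431 for Mrpl35. Without control ZT16 replicate 6 those of Mrpl22, Mrpl40, Mrps18b and Mrps21 were 0.0142, 0.012, 0.0227 and 0.0119, and the other 7 were from 0.0515 to 0.0871.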

How the results depend on the processing

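Each result was recomputed under alternatives that changed 1 choice, and 239 summary values kept within their limits while 45 moved outside them. The counts called between genotypes at ZT8 and ZT12 stayed within 1.5 times under every alternative run, and at ZT16 the count called lower was 18 in the authors' table. With 1 array left out the counts called ran from 36 to 45 at ZT8 (35 to 44 lower), 50 to 55 at ZT12 (46 to 50) and 36 to 43 at ZT16 (29 to 36). Counts over time were less steady. With 1 array left out they ran in controls from 10 to 18 for ZT12 against ZT8, 2 to 7 for ZT16 against ZT12 and 18 to 30 for ZT16 against ZT8, and in knockouts from 2 to 10, 10 to 12 and 22 to 28. The genotype effect at ZT16 against ZT8 was called for 4 to 12 members (fewest without control ZT16 replicate 6, and also moved by control ZT8 replicates 3 and 4), and the F test called 4 to 9. The large subunit median ran from -0.21 to -0.14 at ZT8, -0.29 to -0.22 at ZT12 and -0.14 to -0.11 at ZT16, the small from -0.24 to -0.19, -0.31 to -0.26 and -0.18 to -0.11, and large minus small from 0.00175 to 0.0807, 0.0162 to 0.0445 and -0.00172 to 0.0417, so the sign of the last is not settled.

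The cause of the following shifts was not tested. For ZT12 against ZT8 in knockouts the count of 3 became 10 (quantile), 8 (authors' table), 5 (normexp), 5 (probes above background on all 36 arrays), 6 (no wash batch), 11 (array weights) and 0 (only the groups compared, 3 at an unadjusted limma p under 0.05). For ZT16 against ZT12 in controls the count of 5 became 3 (array median), 3 (authors' table), 2 (no filter) and 0 (only the groups compared, 18 unadjusted). ZT12 against ZT8 in controls gave 8 (array median) and 24 (array weights). Knockouts gave 6 (array median) and 7 (only the groups compared) for ZT16 against ZT12, and 16 (only the groups compared) for ZT16 against ZT8. The effect at ZT16 against ZT8 gave 2 (array median) and 5 (no filter). The F test gave 13 (quantile), 13 (authors' table), 14 (array weights), 4 (mean of probes), 1 (no filter) and 0 (array median, 11 at an unadjusted limma p under 0.05). Subtracting the array median, which moved the median of all genes by -0.06, -0.05 and -0.09, gave medians for large and small of -0.25 and -0.28 at ZT8 and of -0.22 and -0.24 at ZT16. Quantile normalization gave -0.17 and -0.24 at ZT12 (difference 0.0639) and -0.0587 for the small at ZT16 (difference -0.0199). The authors' table gave -0.16 and -0.19 at ZT12 and -0.0237 and -0.0369 at ZT16. The mean of a gene's probes gave differences of -0.0155 at ZT12 and -0.0667 at ZT16, with the small at -0.0701, and normexp -0.0108 at ZT16. At ZT8 the difference was 0.0554 by structure and 0.0822 with array weights.

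Single members reversed with the mean of all kept probes, which includes dim ones, namely Mrpl48 (0.443 at ZT8, 0.124 at ZT12), Mrpl24 (0.179 at ZT12, 0.419 at ZT16) and Mrps18a (0.320 at ZT16). They also reversed within a wash batch, namely Mrpl9 (-0.0703) and Mrps30 (-0.00923) at ZT12 in batch 3, and Mrpl34 (0.0936) at ZT16 in batch 1. Of 62 calls of named members 34 held in all 48 alternatives and 28 were lost in at least 1. Besides Mrpl9, Mrpl14, Mrps9, Mrps18b, Mrps31 and Mrps36, leaving out 1 array ended the ZT8 calls of Mrpl3 (knockout replicates 2, 6, control 5), Mrpl20 (knockout 4), Mrpl35 (knockout 2, 5, control 4) and Mrps11 (control 5), the ZT12 call of Mrps30 (knockout 1), and the ZT16 calls of Mrpl34 (knockout 5), Mrpl36 (knockout 4, 5, control 5) and Mrps18a (knockout 2).

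Replicate numbers did not pair the samples: of 18 correlations between same-numbered arrays 4 were above 0.1 (-0.159 to 0.146). With the replicate block 44, 52 and 39 members were called at ZT8, ZT12 and ZT16, and 6 for ZT12 against ZT8 in knockouts. All brightest probes were well above background on every array, but so was a dim second probe of Mrpl48 (mean level -3.57). Mrpl35, the dimmest member, had levels from -3.41 to -2.47, so low signal can limit it as well as the dim second probes.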
